A study of Mus musculus with 6 samples.

Results

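The genes described here are 9 that are seldom discussed in nephron development and that gave low signal in kidneys lacking Sall1: Lamp5, Ocm, Fam167a, Htr5b, Chrna9, Lcn2, Nr2e1, C8a and Spp2. They are 9 of 17234 named genes of the array. They were chosen by these same signals, as strongly lower on the Sall1 knockout arrays, so their differences between knockout and control are described without a test. Of 10 probes carrying a RefSeq accession of these genes, Chrna9 has 2 and each of the others has 1. Transcript levels were measured on 6 one-colour Agilent arrays from mouse embryonic kidney at E14.5, on a hybrid 129 and C57BL/6 background. The Six2Cre line, in which Cre is directed to the nephron progenitors, gave 2 knockout arrays (KO 7 and KO 9) and 2 control arrays (control 5 and control 2). These controls are titled WT, and the title does not say whether they carry Six2Cre. If they do not, carrying Six2Cre and losing Sall1 cannot be told apart in this line. The inducible line gave 1 knockout array titled CreER/flox (CreER KO 5) and 1 control array titled wt/flox (CreER control 2), given tamoxifen at E12.5, 48 hours before dissection. Both knockouts carry floxed Sall1. The labels write the inducible line as Sall1CreERfSall1 and do not say whether CreER takes the place of a Sall1 allele. CreER is named for the inducible knockout but not for its control, so that carrying CreER and losing Sall1 after tamoxifen cannot be told apart there. Tamoxifen is mentioned for every sample, so whether Six2Cre embryos received it is unclear, and the labels do not say how many embryos stand behind an array, so the spread between arrays may be technical. The line of each Six2Cre array was read from its title together with the design text.

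Sall1, a zinc finger protein that binds DNA, is made in the cap mesenchyme, the nephron progenitor population that surrounds each ureteric bud tip. These progenitors either renew or turn into renal vesicles, which lengthen into podocytes, proximal tubule, loop of Henle and distal tubule. The 9 genes come from unrelated protein families. Spp2, C8a and Lcn2 encode secreted proteins, Lamp5, Htr5b and Chrna9 encode membrane proteins, and Ocm, Nr2e1 and Fam167a encode proteins that work inside the cell.

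The targeted gene was read first. The single Sall1 probe had a processed signal of 327 on Six2Cre KO 7 and 481 on KO 9, against 763 on Six2Cre control 5 and 1117 on control 2. It had 108 on CreER KO 5, against 847 on CreER control 2. After scaling, the 2.38-fold lower level in Six2Cre knockouts (log2 difference -1.25, SE 0.37, n = 2 each) compared with 6.86-fold in the CreER pair, with no knockout array overlapping a control. Processed signal is the background-subtracted brightness of a spot in scanner units, and differences are given after dividing by the 75th percentile of the array, which lay between 1791 and 2055. Six2Cre KO 7 and control 5 shared slide 1, and the other 4 arrays shared slide 2. Feature Extraction called 71.8% of probes well above background on CreER KO 5, and between 80.0% and 82.9% on the other 5 arrays. The lowest signal called well above background was 20.9 on CreER KO 5 and between 7.38 and 8.67 elsewhere, which limits what can be read of dim genes on that array. Among 6350 features well above background on neither CreER array, the median difference was 1.62 log2 units higher on the knockout array. Defining markers of embryonic kidney were present throughout: 9 of 9 nephron progenitor, 10 of 10 early nephron and 10 of 10 proximal tubule markers were well above background on every array.

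Upstream sequences are shown for 4 of the genes because the results differ between them: Lamp5 and C8a were lower in both lines, Ocm had its larger difference in the inducible line, and Spp2 was lower in the Six2Cre line alone. RefSeq start sites (GRCm38.p6) were matched for 7 of 9 genes, not for Fam167a and Htr5b, and the 250 bases before each start were searched on both strands for 6 short motifs. Capitals mark every match. In Lamp5, for which RefSeq lists a pair of starts, the second (chr2:136057498-136057747, plus strand) holds CAAAG, the core of HNF4 sites, once in each orientation, and the first holds none of the motifs. In Ocm (chr5:144050610-144050859, minus strand) CAAAG occurs in both orientations and TGATAC, a core read by Six2 and its relatives, ends 100 bases before the start. In C8a (chr4:104876399-104876648, minus strand) GTTAAT, part of the HNF1 site, begins 107 bases before the start. In Spp2 (chr1:88406760-88407009, plus strand) CAAAG begins 184 and 170 bases before the start, and the AT-rich hexamer AATATT begins 30 bases before it.
Lamp5: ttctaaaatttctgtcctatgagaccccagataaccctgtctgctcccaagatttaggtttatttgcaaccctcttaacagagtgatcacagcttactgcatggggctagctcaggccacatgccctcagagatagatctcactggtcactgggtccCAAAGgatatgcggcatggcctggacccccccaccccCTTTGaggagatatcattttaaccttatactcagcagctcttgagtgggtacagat
Ocm: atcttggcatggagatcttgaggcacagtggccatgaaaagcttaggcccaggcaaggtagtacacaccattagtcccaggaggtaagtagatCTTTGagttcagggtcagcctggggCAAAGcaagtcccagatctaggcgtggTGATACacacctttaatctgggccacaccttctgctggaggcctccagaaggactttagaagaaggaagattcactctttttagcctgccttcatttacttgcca
C8a: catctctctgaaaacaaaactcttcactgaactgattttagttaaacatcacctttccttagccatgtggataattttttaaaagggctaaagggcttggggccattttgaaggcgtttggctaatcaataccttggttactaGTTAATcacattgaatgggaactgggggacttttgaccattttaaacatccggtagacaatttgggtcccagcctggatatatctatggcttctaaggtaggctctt
Spp2: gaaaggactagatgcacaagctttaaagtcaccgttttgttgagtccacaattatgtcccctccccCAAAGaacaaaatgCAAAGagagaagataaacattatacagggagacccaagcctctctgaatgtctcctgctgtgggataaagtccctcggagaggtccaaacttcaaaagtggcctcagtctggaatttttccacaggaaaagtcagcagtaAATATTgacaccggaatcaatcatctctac
The same windows of all 32851 RefSeq starts held CAAAG in 48.6%, GTTAAT in 6.43%, TGATAC in 4.64% and AATATT in 6.17%. AGGTCA, the core of nuclear receptor sites (14.0% of all starts), and TATAAA, the TATA box (12.4%), matched none of these genes. Nr2e1 held CAAAG once and Chrna9 and Lcn2 held no match; the 10 matches did not overlap each other. A match is a string of letters and not a shown binding site.

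All 9 genes were at least 2-fold lower in knockouts in both Six2Cre slide pairs, where 1.68% of 26389 features were. In the CreER pair 8 of 9 were at least 2-fold lower, against 2.18% of features, and Spp2 alone was higher on the knockout array, as 48.9% of features were. The same 8 had all 3 knockout arrays below all 3 control arrays, against 4.44% of features. These contrasts chose the genes, so nothing is read from the shares. The median difference of the 9 was -2.35 log2 units in the Six2Cre line and -1.72 in the CreER pair, beside medians over all features of 0.03 and -0.01. Every gene was well above background on the 3 control arrays. Ocm, Fam167a and Htr5b were so on all 6 arrays, Chrna9 and Spp2 on 5, Lamp5 on 4, and Lcn2, Nr2e1 and C8a on 3, the controls only, so these last 3 passed the filter through the controls alone. Where no knockout array of a comparison was well above background, knockout signals under the lowest well-above-background signal of their array were raised to it. The fold is then written "at least". With signals so raised, 8 genes stayed at least 2-fold lower in both Six2Cre pairs (1.46% of features) and 6 in the CreER pair (0.477%). With normexp background correction, which adds an offset of 50 and shrinks dim signals, the counts were 4 (0.777% of features) and 2 (0.174%).

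**Figure D1:**
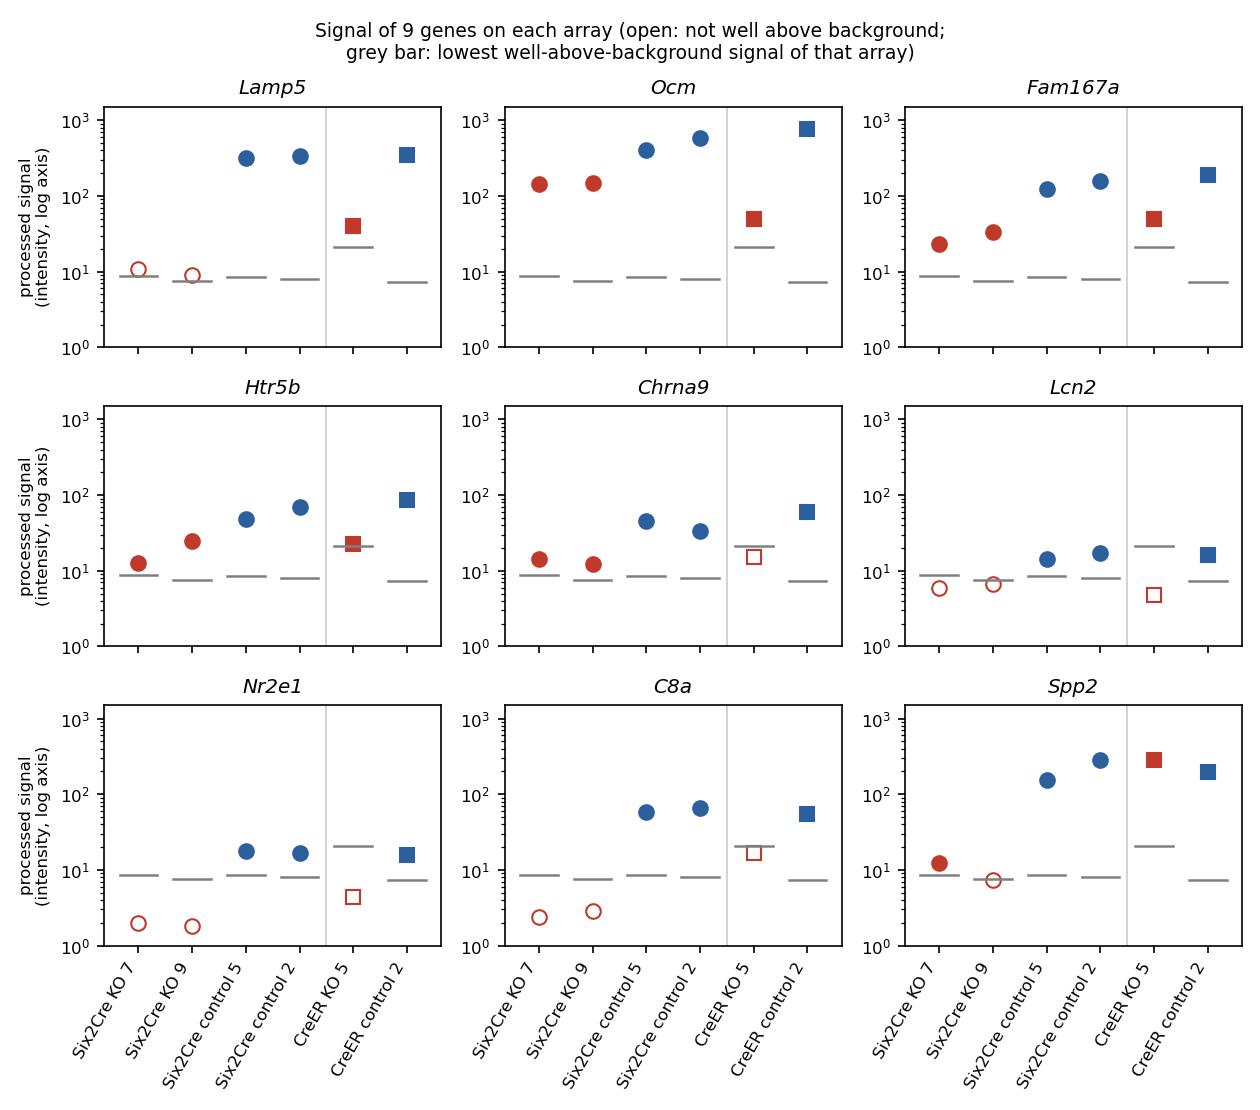
Processed signal (intensity, log axis) of the 9 genes on the 6 arrays, knockout in red and control in blue, circles for Six2Cre and squares for CreER. Open symbols were not well above background and grey bars give the lowest signal of each array that was. The control arrays lie above the knockout arrays of the same line in every panel except the CreER pair of Spp2.

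Of the secreted proteins, Spp2 encodes secreted phosphoprotein 24, a protein of plasma and bone that binds bone morphogenetic proteins. Spp2 had a signal of 12.4 on Six2Cre KO 7 and 7.33 on KO 9, the second not well above background, against 155 on Six2Cre control 5 and 287 on control 2. The CreER arrays had 286 on the knockout and 198 on the control. The Six2Cre groups were far apart, and CreER KO 5 was the highest of all 6 arrays after scaling. By these values, with 1 of 2 knockout arrays well above background, Spp2 was 22.5-fold lower in Six2Cre knockouts (log2 difference -4.49, SE 0.45, n = 2 each), with 12.9-fold in slide 1 and at least 38.2-fold in slide 2. In the CreER pair it was 1.66-fold higher on the knockout array (0.73, single arrays without an error). The 3 control arrays spanned 1.93-fold, so the CreER difference was smaller than the spread among controls.

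C8a encodes the alpha chain of complement component 8, part of the pore that complement inserts into membranes, and is made mainly by liver. Its signal was 2.35 on Six2Cre KO 7 and 2.84 on KO 9, neither well above background, against 58.6 on Six2Cre control 5 and 66.2 on control 2. On CreER KO 5 it was 16.6, also not well above background, against 54.0 on CreER control 2. The controls differed by 1.32-fold at most and no knockout array reached them. C8a was at least 7.84-fold lower in Six2Cre knockouts and at least 2.25-fold lower on the CreER knockout array.

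Hepatocyte markers moved with Spp2 and C8a in the Six2Cre line. Their summed signal over 9 measured markers, as a percentage of the 75th percentile, was 125 and 104.7 in Six2Cre knockouts, against 468 in control 5 and 1336 in control 2. It was 243 on the CreER knockout and 237 on the CreER control, where C8a still was at least 2.25-fold lower. Between 5 and 9 of the 9 were well above background on each array, with 7 on each Six2Cre knockout and none absent from all arrays. Proximal tubule markers, 10 of 10 measured, moved in the same way as Spp2. Their sum was 173 and 193 in Six2Cre knockouts, against 995 and 1150.5 in Six2Cre controls, and 1160.2 on the CreER knockout, against 939.7 on the CreER control. Podocyte markers, 7 of 7 measured, had the same directions. Their sum was 327 and 244 in Six2Cre knockouts, against 542 and 435 in Six2Cre controls. It was 439 on the CreER knockout, against 369 on the CreER control. The part of any of these cell types in the values of Spp2 and C8a was not tested. In bulk tissue fewer cells of a type and less RNA per cell cannot be told apart.

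Lcn2 encodes lipocalin 2, which binds iron through bacterial siderophores, is a marker of kidney injury, and in rat induces metanephric mesenchyme to form epithelium. Lcn2 was dim on every array, with 5.88 on Six2Cre KO 7 and 6.73 on KO 9, neither well above background, against 14.1 on Six2Cre control 5 and 17.0 on control 2. CreER KO 5 had 4.75, not well above background, against 16.0 on CreER control 2. Lcn2 was at least 1.95-fold lower in Six2Cre knockouts, with at least 1.69-fold in slide 1 and at least 2.27-fold in slide 2. No fold is given for the CreER pair, because the lowest well-above-background signal of the knockout array exceeded the control value. Neutrophils also make lipocalin 2; the summed signal of 8 neutrophil markers was 33.6 and 139.6 in Six2Cre knockouts, against 53.0 and 77.2 in Six2Cre controls, and 28.2 on the CreER knockout, against 23.0 on the CreER control. Elane and Ngp among them were well above background on no array. Those sums did not follow the order of Lcn2, and their part in it was not tested.

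Of the membrane proteins, Lamp5 encodes a brain-enriched member of the lysosome-associated membrane protein family that marks a class of cortical interneurons. Lamp5 had 10.7 on Six2Cre KO 7 and 8.90 on KO 9, neither called well above background, against 322 on Six2Cre control 5 and 342 on control 2. It had 40.7 on CreER KO 5, well above background, against 349 on CreER control 2. The 3 controls lay within 1.103-fold of each other after scaling, the closest of the 9 genes, and the CreER knockout lay between the Six2Cre knockouts and the controls. Lamp5 was 34.7-fold lower in Six2Cre knockouts, with 31.1-fold and 38.7-fold within the slides, and 7.48-fold lower in the CreER pair (log2 difference -2.90). Both Six2Cre knockout signals lay above the lowest well-above-background signal of their arrays, so neither was raised. The Six2Cre folds are thus ratios to signals not called well above background, and not lower bounds.

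Htr5b encodes serotonin receptor 5B, a receptor of rodent brain that signals through G proteins. It had 12.8 on Six2Cre KO 7 and 24.7 on KO 9, against 47.8 on Six2Cre control 5 and 69.5 on control 2. It had 22.6 on CreER KO 5, just above the lowest well-above-background signal there, against 85.9 on CreER control 2. The Six2Cre knockouts differed from each other by 1.03 log2 units, the widest gap between replicate knockouts among the 9, yet neither overlapped a control. Htr5b was 3.30-fold lower in Six2Cre knockouts (-1.72, SE 0.46) and 3.31-fold lower on the CreER knockout array.

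Chrna9 encodes the alpha9 subunit of nicotinic acetylcholine receptors, best known from cochlear hair cells. Its brighter probe had 14.4 on Six2Cre KO 7 and 12.2 on KO 9, against 45.8 on Six2Cre control 5 and 34.0 on control 2. On CreER KO 5 it had 15.1, not well above background, against 60.5 on CreER control 2. By this probe Chrna9 was 3.04-fold lower in Six2Cre knockouts (-1.61, SE 0.27) and at least 2.52-fold lower in the CreER pair. The second probe had 4.997 and 9.28 in Six2Cre knockouts, neither well above background, against 16.0 and 18.9 in Six2Cre controls, and was at least 1.98-fold lower. On the CreER arrays that probe had 12.8 on the knockout, not well above background, against 30.5 on the control, at least 1.27-fold lower. The probes thus had the same direction in all 3 pairs. Summed signal of 6 markers of neurons and neural crest was 102 and 123 in Six2Cre knockouts, against 203 and 219 in Six2Cre controls, and 319.5 on the CreER knockout, against 256 on the CreER control. Of the 6, Snap25 was well above background on no array, and 5 were on each array but CreER KO 5, where 4 were. In the Six2Cre line 2 of the 5 kept were lower and 3 higher, with a median difference of 0.02. Elavl4, the brightest and so of most weight in the sum, was -1.71. Lamp5, Htr5b, Chrna9 and Nr2e1 are best known from neural or sensory cells, and the part of neural cells in their values was not tested.

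Of the intracellular proteins, Ocm encodes oncomodulin, a small calcium-binding EF-hand protein of the parvalbumin group known from outer hair cells. It was bright enough to be read on every array. Ocm had 145 on Six2Cre KO 7 and 147 on KO 9, against 410.2 on Six2Cre control 5 and 586 on control 2, and 49.4 on CreER KO 5, against 778 on CreER control 2. The CreER knockout was the lowest and the CreER control the highest of the 6 arrays. Ocm was 3.43-fold lower in Six2Cre knockouts (-1.78, SE 0.30), with 2.92-fold and 4.02-fold within the slides, and 13.7-fold lower in the CreER pair (-3.78). The 2 Six2Cre knockouts differed by 0.11 log2 units, which is less than the 0.57 between the Six2Cre controls.

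Nr2e1 encodes the orphan nuclear receptor TLX, which maintains neural stem cells and shapes the retina. It was dim throughout, with 2.00 on Six2Cre KO 7 and 1.84 on KO 9, neither well above background, against 17.8 on Six2Cre control 5 and 16.8 on control 2. CreER KO 5 had 4.32, not well above background, against 15.6 on CreER control 2. The 3 controls lay within 1.19-fold of each other and every knockout signal was below them. Nr2e1 was at least 2.18-fold lower in Six2Cre knockouts, and for the CreER pair no fold is given, for the same reason as for Lcn2.

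Fam167a encodes a protein of little-known function. It had 23.2 on Six2Cre KO 7 and 33.8 on KO 9, against 122 on Six2Cre control 5 and 159.9 on control 2, and 49.4 on CreER KO 5, against 188 on CreER control 2. All 6 values were well above background and the groups did not overlap. Fam167a was 5.10-fold lower in Six2Cre knockouts (-2.35, SE 0.35), with 5.45-fold and 4.77-fold within the slides, and 3.31-fold lower on the CreER knockout array (-1.73).

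**Figure D2:**
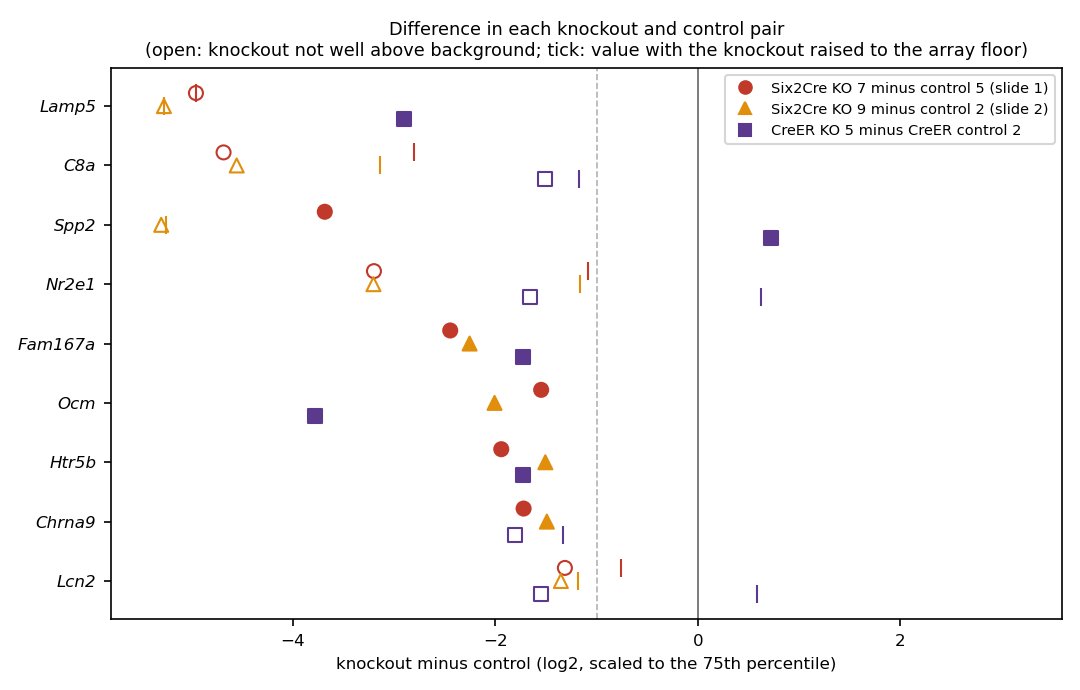
Knockout minus control (log2, scaled to the 75th percentile) for each of the 9 genes in the pairs of Six2Cre slide 1, Six2Cre slide 2 and CreER. Open symbols have a knockout not well above background, and ticks give the value with that knockout raised to the array floor. The Six2Cre values run from -5.30 to -1.31 and the CreER values from -3.78 to 0.73, with Spp2 the single positive one.

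The lines ordered the genes differently. In Lamp5, C8a and Nr2e1 the measured Six2Cre difference was the larger, by 2.21, 3.11 and 1.55 log2 units, and in Spp2 the lines had opposite signs, 5.22 apart. In Ocm the CreER difference was the larger, by 2.00. Fam167a, Htr5b, Chrna9 and Lcn2 differed between lines by 0.62 or less. For C8a, Nr2e1, Lcn2 and Chrna9 the CreER knockout value lay below what that array resolves. Six2Cre knockout values were not well above background for Lamp5, C8a, Nr2e1 and Lcn2, nor for Spp2 on KO 9. The gaps between lines of these genes are therefore not measured sizes. Across all features limma called 0 differences between lines at an adjusted p under 0.05, with 615 (2.33%) at an unadjusted p under 0.05. The nephron progenitor marker sum was 1188 and 1238 in Six2Cre knockouts, against 3195 and 4062 in Six2Cre controls, and 2366 on the CreER knockout, against 4106 on the CreER control. Early nephron sums were 693 and 895 in Six2Cre knockouts, against 1803 and 2052 in Six2Cre controls, and 1391 on the CreER knockout, against 1509.5 on the CreER control. The loop and distal tubule sum was 29.2 and 24.8 in Six2Cre knockouts, against 262 and 171 in Six2Cre controls, and 73.9 on the CreER knockout, against 155 on the CreER control. In the Six2Cre line all 9 genes were lower together with these lists. In the CreER pair 8 genes were lower by unraised signal, 6 of them at least 2-fold with signals raised, and Spp2 was higher. For the others, Lcn2 and Nr2e1, the control lay below the lowest well-above-background signal of the knockout array, so their direction there is not resolved. Progenitor and loop sums were lower in that pair and the proximal tubule sum higher. Muscle markers were high on 1 array: their sum was 236 and 166 in Six2Cre knockouts, against 202 in control 5 and 2987 in control 2, and 359.5 on the CreER knockout, against 150.2 on the CreER control. For the 9 genes control 2 was within 1.93-fold of control 5. In slide 1, which lacks control 2, the unraised signals of all 9 were at least 2-fold lower on the knockout. Lamp5, Lcn2, Nr2e1 and C8a were not well above background on that knockout, and Lcn2 with its signal raised was at least 1.69-fold lower. The part of muscle in the values of the 9 genes was not tested.

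**Figure D3:**
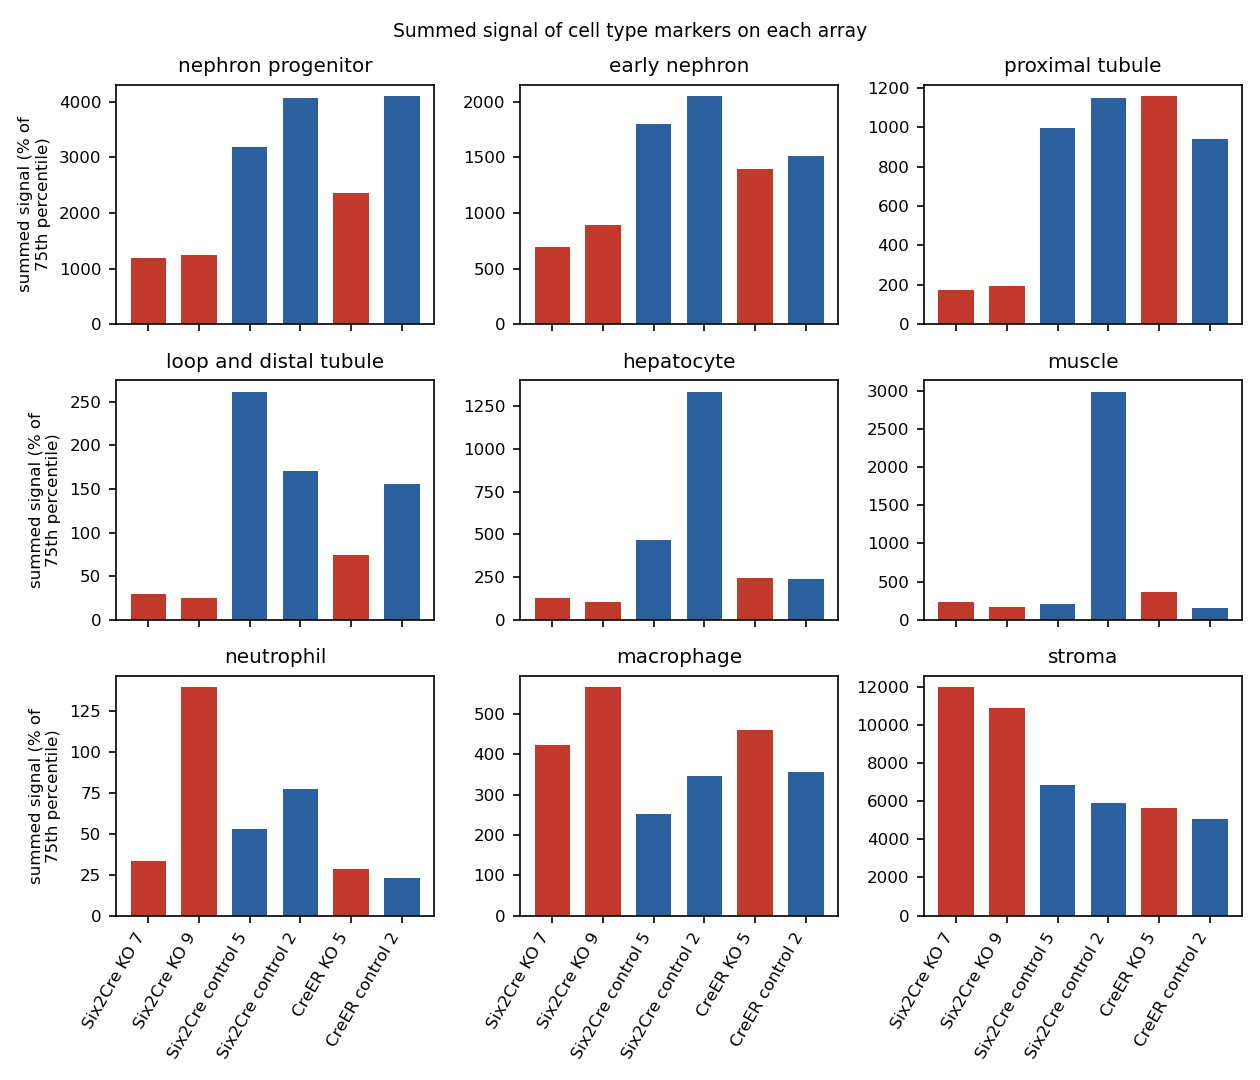
Summed signal of cell type markers (percent of the 75th percentile of the array) on each array, knockout bars red and control bars blue. Progenitor and loop sums are lower in the knockouts of both lines. The early nephron sum is lower in Six2Cre knockouts and differs little in the CreER pair (1391 on the knockout, 1509.5 on the control). The proximal tubule sum is lower in Six2Cre knockouts alone, and muscle and hepatocyte sums peak on Six2Cre control 2.

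The genes of most similar pattern were found by the root mean square difference between values centred on the mean of each gene over the 6 arrays, among 15229 named genes, with 0 meaning the same shape. Knockout values of Nr2e1, C8a and Lcn2 were well above background on no array and those of Lamp5 on 1, so their distances rest in part on background signal. Nr2e1 was nearest to Umod, which encodes uromodulin of the thick ascending limb (0.10 log2 units), then Defb35 (0.27) and the patterning factor Irx2 (0.27). Lamp5 was nearest to C8a (0.48), to Cited1, which marks uncommitted cap cells (0.49), and to Cyp4a31 (0.60). C8a was nearest to Cyp4a31 (0.39), then Vil1, which encodes the brush border protein villin (0.41), and Cited1 (0.46). Ocm was nearest to Spag11a (0.23), Cyp26a1, which degrades retinoic acid (0.25), and Akr1c18, a steroid dehydrogenase (0.40). Fam167a was nearest to Apom, which encodes apolipoprotein M (0.25), Car4, a membrane carbonic anhydrase (0.27), and Htr5b (0.29). Spp2 was nearest to Aadac (0.26), the brush border protease Mep1b (0.52) and the organic anion exporter Abcc2 (0.55). Of these, Aadac was 0.50 and Abcc2 0.68 in the CreER pair, and Mep1b was -0.03. Htr5b was nearest to the potassium channel gene Kcnk10 (0.28), Ch25h (0.29) and Gpr83 (0.29). Chrna9 was nearest to Ppm1e (0.32), Doc2a (0.33) and Moxd1 (0.33). Lcn2 was nearest to Spon1 (0.14), Fbxw24 (0.15) and Stpg1 (0.18). These likenesses describe 6 arrays of 2 genotypes, on which many genes share a shape.

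Relatives of each gene, by protein family or by shared function, were read beside it. Some lists reach past the protein family. They hold receptors of lipocalin 2, serotonin synthesis and transport genes, Ache and Chat, and complement components and regulators of several kinds. Counts over the lists therefore do not answer for protein families alone. Relatives came from 9 such lists, and C8g stands in both the lipocalin and the complement list. Of 101 relatives listed, 96 were on the array and 79 passed the filter, and limma called 0 of them at an adjusted p under 0.05 (lowest adjusted p = 0.134), as it called 0 of all features in either direction. At an unadjusted p under 0.05, 8 of 79 were lower and 8 higher, where 2.70% and 3.63% of all features were. Among the 79, 7 were at least 2-fold lower in both Six2Cre pairs: Lrp2, Apom, Ambp, Hnf4a, Hc, Cfb and Ahsg. That is 8.86% of the 79, beside 1.68% of all features. The median difference of the 79 was 0.16 log2 units, beside 0.03 for all features.

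Of the LAMP family, none of 3 kept relatives passed, with a median of -0.03. Lamp2 was 0.39 (SE 0.24) and Lamp3, a dendritic cell member, -0.08 (SE 0.41), against -5.12 for Lamp5. Fam167b, the only FAM167 relative, was 0.88 (SE 0.37). Of the EF-hand proteins, none of 7 passed, with a median of 0.54 and 6 of 7 above 0. Calb1, a calcium buffer of ureteric and distal cells, was 0.63 (SE 0.32) and S100b 0.92 (SE 0.36), and Pvalb was on no array well above background.

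Of the serotonin genes, none of 9 passed, with a median of 0.31. Htr2b was 0.62 (SE 0.27) and Htr1d 0.48 (SE 0.26), and 5 receptors, Htr1a, Htr1b, Htr3b, Htr4 and Htr7, were well above background on no array. Of the nicotinic receptor genes, none of 14 passed, with a median of -0.43. Chrna1 (-2.61, SE 1.54) and Chrng (-1.91, SE 1.29), the subunits of embryonic muscle, had the largest differences. Their values were 0.04 and 0.05 in slide 1 and -5.27 and -3.87 in slide 2, and so rested on Six2Cre control 2, the array of high muscle signal. Chrna9 was -1.72 in slide 1 and -1.49 in slide 2. It was chosen for low knockout values, and the part of muscle in them was not tested. Chrna10, the partner of Chrna9 in hair cells, was 0.69 (SE 0.79).

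Of the lipocalins and lipocalin 2 receptors, none of 10 passed, with a median of 0.25. Apom was -2.38 (SE 0.30) and Lrp2, the endocytic receptor megalin that takes up lipocalin 2, -2.15 (SE 0.26). In the CreER pair Apom was -1.49 and Lrp2 0.20. Of the NR2 nuclear receptors, none of 10 passed, with a median of 0.00. Hnf4a, the factor of proximal tubule differentiation, was -3.36 (SE 0.41) in Six2Cre and 0.10 in CreER, and Nr2f1 was 0.99 (SE 0.37) in Six2Cre.

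Of the complement genes, none of 20 passed, with a median of 0.25. Mbl2, a lectin of the complement cascade, was at least 3.30-fold higher in Six2Cre knockouts, with no Six2Cre control well above background (measured difference 2.71, SE 0.58). The limma adjusted p was 0.349, and the CreER difference was -1.02. Hc, which encodes component 5, was -2.01 (SE 0.37). Of the other chains of component 8, C8g was 0.23 (SE 0.26), and C8b was well above background on no array, controls included, so no difference can be read for it. Of the cystatin superfamily, none of 6 passed, with a median of 0.04. Ahsg, which encodes fetuin A, was -2.77 (SE 0.81), with -1.56 in slide 1 and -3.98 in slide 2, and Kng1, the kininogen gene, was -1.004 (SE 0.44). Ahsg also stands among the hepatocyte markers, whose sum was highest on Six2Cre control 2.

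**Figure D4:**
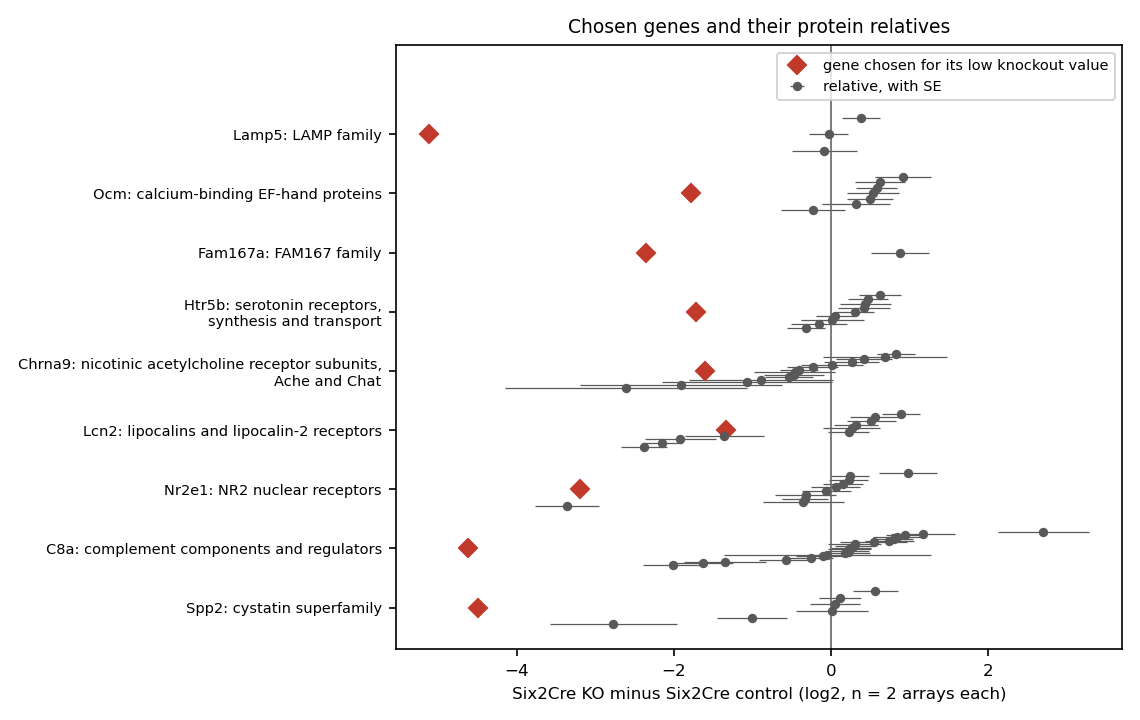
Six2Cre KO minus Six2Cre control (log2, n = 2 arrays each) for the 9 chosen genes (red diamonds) and their kept relatives (grey points, bars are SE from limma). Relatives are by protein family or shared function. The chosen genes lie between -5.12 and -1.33, most relatives lie near 0, and the relatives furthest below 0 are Hnf4a, Ahsg, Chrna1, Apom, Lrp2 and Hc.

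Genes next to each chosen gene in the RefSeq gene order were also read. Of 18 immediate neighbours, 8 were on the array and 6 passed the filter, and limma called 0 of these (lowest adjusted p = 0.671; 1 at an unadjusted p under 0.05). They ran from -0.15 for Ddx18, beside Htr5b, to 1.31 for Pak7, beside Lamp5. With the nearest protein-coding gene on each side, a choice made after these values were seen, 14 passed the filter and again 0 were called (lowest adjusted p = 0.512; 3 at an unadjusted p under 0.05). The lowest was Prkaa2, beside C8a, at -1.07 (SE 0.29). None of the 14 was at least 2-fold lower in both Six2Cre pairs, where 1.68% of all features were.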

How the data were processed

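Kidney RNA was prepared with Trizol, per the labels, and amplified with Cy3. Per the file headers, the authors' scans were extracted with Feature Extraction 10.5.1.1 on an array designed on mm9. The authors' deposited processed signal is a linear intensity, corrected for background inside the array but not scaled to the other arrays; the deposited "well above background" flag, a value of another kind (0 or 1), was used as given. The values deposited for the series are that intensity again: at least 99.6% per array matched it to a relative 0.001, so their scale is known, and the column medians ran from 186 to 234. The files have no mean spot signal, so normexp was run on the median spot and background intensity.

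Control spots and flagged outlier spots were left out, and spots of a probe averaged (40987 probes). Probes were named by RefSeq accession of GRCm38.p6 genes, which named 24999 probes. A gene was represented by its probe of highest mean signal. Values are log2 signal minus the 75th percentile. Features well above background on at least 2 of 6 arrays (26389, of which 15229 named genes) were fitted with limma 3.58.1 (R 4.3.3) over 4 groups, and p-values adjusted by Benjamini-Hochberg over all of them at 0.05, two-sided. The fit was tested on simulated data. CreER values are differences of single arrays. The genes, the lists of relatives and markers and the tests were chosen with earlier results of these data known, and the choice of the 9 had no fixed cutoff. Named were the 9 genes, Sall1, in each family the relatives past the threshold and the 2 of largest difference, 3 genes of most similar pattern, and the next gene on each side; other relatives named were chosen after their values were seen. 1 marker of the neuron list was left out and is not reported here. Figures used matplotlib 3.10.9 in Python 3.11.15.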

Additional observations from a re-analysis of the deposited data

Results flagged for a closer look

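Spp2 stood out because its direction differed between the lines: it was lower in both Six2Cre pairs (-3.69 in slide 1 and at most -5.25 in slide 2, where the knockout was not well above background) and higher in the CreER pair (0.728, in log2 units). The limma contrast between lines was fitted on all features, Spp2 among them, and called 0 at an adjusted p under 0.05. It is not read as a test of Spp2, since the Six2Cre values chose the gene and each CreER group is 1 array. Of all features, 127 (0.481%) were at least 2-fold lower in both Six2Cre pairs and higher on the CreER knockout array. They are 127 of the 443 features at least 2-fold lower in both Six2Cre pairs, so Spp2 shared its pattern with many of these. The CreER value was 0.65 to 0.75 under the alternatives tried.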

How the results depend on the processing

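Of 198 recalculated differences of the 9 genes, 109 took another value, the rest being ones that the setting could not or did not change. Of the 109, 107 kept their direction and 2 turned. The 2 were the CreER values of Lcn2 (0.59) and Nr2e1 (0.62) with signals raised to the array floor, where the floor of the knockout array lies above the control. Normexp brought every difference of the 9 genes closer to 0, and the cause was not tested. With normexp, 205 features were at least 2-fold lower in both Six2Cre pairs and 46 in the CreER pair, in place of 443 and 574, with 4 and 2 of the 9 genes. Quantile normalization gave 871 features in the CreER pair, and raising signals to the floor gave 126. At 3-fold the counts were 223 features and 5 of the 9 genes in both Six2Cre pairs, and 135 features in the CreER pair. Leaving out arrays gave from 443 (without a CreER array) to 2104 features: with 1 Six2Cre pair left, 829 without control 5 or KO 7, and 2104 without control 2 or KO 9. All 9 genes were among them each time. That outcome was fixed in advance, because each was chosen as lower and was already at least 2-fold lower in both pairs. With the slide as block, and the eBayes options trend and robust, limma called 7 relatives (6 lower, 1 higher) and 627 features, where the slide block alone, quantile normalization, normexp and leaving out any array called 0. No paired analysis was possible because the knockout and control groups of a line share no replicate number; the pairs described are arrays of 1 slide. Signal over background limits Lcn2, Nr2e1 and C8a in knockouts of both lines, Lamp5 in Six2Cre knockouts, Spp2 on KO 9 and Chrna9 in the CreER knockout.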

Other observations

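Other cell type marker lists gave these Six2Cre medians (log2, knockout minus control), beside 0.03 over all features: stroma 1.27 with 7 of 7 members above 0, macrophages 0.81 with 6 of 6, and podocytes -1.43 with 7 of 7 below 0. Ureteric bud and collecting duct had 0.23, endothelium 0.20, erythroid cells 0.21, gonad and germ cells 0.27 and adrenal -0.10. Col1a1 and Dcn were the brightest stroma markers and Pf4 and Csf1r the brightest macrophage markers. No member of these lists passed limma at an adjusted p under 0.05; with the slide as block and the eBayes options trend and robust, 5 of 7 stroma, 4 of 7 podocyte and 1 of 6 macrophage markers did, and none of the other 5 lists.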
